A study of Homo sapiens with 6 samples.

Results

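Selenoproteins carry selenocysteine, which is encoded by UGA, a codon that elsewhere ends translation. The genes described here were 10 selenoproteins chosen by name, under their older or current symbols: GPX1, GPX4, TXNRD1, TXNRD2, SEPHS2, SELT (SELENOT), SELK (SELENOK), SEPW1 (SELENOW), SEP15 (SELENOF) and VIMP (SELENOS). Of these 10, 9 had a row among the 19330 transcripts of the count table, and VIMP was not analysed here. GPX1 was listed at 0 in each library, so 8 of the 10 could be tested.

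The measurements were ribosome footprints, the pieces of mRNA that ribosomes protect from nuclease digestion, in K562, a human chronic myelogenous leukemia cell line. One group of 3 libraries (sgN6AMT1) came from cells that received Cas9 and a guide against N6AMT1 by lentivirus, and the other group of 3 (sgCtrl) from cells with guides against the olfactory receptor genes OR11A1 and OR2M49, as the labels spell them. Both groups were selected with puromycin for 48 h, starting 48 h after infection, and were collected on day 10. According to the methods the replicates were separate lentiviral transductions, isolation of clones is not described, and which control guide each sgCtrl library carried is not stated.

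During decoding of an internal UGA, a hairpin in the 3′ UTR called the SECIS element recruits SECISBP2, and the elongation factor EEFSEC delivers the selenocysteine tRNA. The same codon can be read by the release factor eRF1, so insertion and termination compete there. N6AMT1 is the methyltransferase that modifies eRF1 on the glutamine of its catalytic GGQ motif. When a UGA is read as a stop well upstream of an exon junction, the mRNA can become a substrate of nonsense-mediated decay, for which GPX1 is a textbook example.

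Libraries held 1821356 to 2969736 counts. Footprints on N6AMT1 itself numbered 25, 24 and 34 in sgCtrl but 10, 9 and 8 in sgN6AMT1, which gave a log2 fold change of -1.51 ± 0.313 (SE, adjusted p = 6.69e-05, edgeR quasi-likelihood test). All 10 of 10 erythroid markers of K562 cells passed the filter on low counts, 2 of them higher and 4 lower in sgN6AMT1. These 6 of 10 were a larger share than the 26.9% of all genes tested that edgeR called, and 10 genes are few for a share. The 4 lymphoid markers in the table together held 0 to 8 counts per library. Of 4 epithelial markers EPCAM had 322 to 522 counts, and CDH1, KRT5 and KRT17 had at most 7. The part of the erythroid markers in any change below was not tested.

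The position of the UGA was read from the GENCODE 44 transcripts on GRCh38. Below are the bases around it for both paralog pairs, for SELK, whose UGA also lies near the end, and for SEP15, whose UGA is followed by another base than in the rest. Capitals mark the selenocysteine codon, written TGA as in DNA, and each line starts 12 bases before it and runs for up to 15 bases after it, or to the end of the stop codon where that comes earlier.
GPX1: gtggcgtccctcTGAggcaccacggtccgg
GPX4: gtggcctcccagTGAggcaagaccgaagta
TXNRD1: caggctggctgcTGAggttaa
TXNRD2: gtgacaggctgcTGAgggtaa
SELK: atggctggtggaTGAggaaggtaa
SEP15: gaagtttgtggaTGAaaattgggaaggttc

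In GPX1 the codon lies at chr3:49358132-49358134 on the minus strand, in exon 1 of 2. In GPX4 it lies at chr19:1105403-1105405 on the plus strand, in exon 3 of 7. The codon of TXNRD1 is at chr12:104348413-104348415 on the plus strand, in the last of 17 exons, and that of TXNRD2 at chr22:19877111-19877113 on the minus strand, in exon 17 of 18. For SELK it is at chr3:53885831-53885833 on the minus strand, in exon 4 of 5, and for SEP15 at chr1:86880690-86880692, also on the minus strand, in exon 3 of 5. All of these codons are inside the coding sequence (CDS).

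The 10 genes fell into those with an early UGA and those in which it is almost the last codon. It was codon 13 of 87 in SEPW1, 46 of 242 in GPX4, 49 of 203 in GPX1, 49 of 195 in SELT and 60 of 448 in SEPHS2. SEP15 was intermediate, with codon 96 of 165. In SELK it was codon 92 of 94, in TXNRD2 codon 523 of 524, in TXNRD1 codon 648 of 649 and in VIMP codon 188 of 189. In TXNRD1, TXNRD2 and VIMP a ribosome that stopped at the UGA would therefore have crossed all but 1 of the sense codons beside the UGA itself, whereas in SEPHS2 388 codons followed it. The transcript listed for GPX4 is not the one GENCODE marks as canonical, and holds a further in-frame TGA at codon 201. Listed transcripts of SELT and SEPW1 had no match in GENCODE 44, so the canonical transcript of each gene was used.

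**Figure D1:**
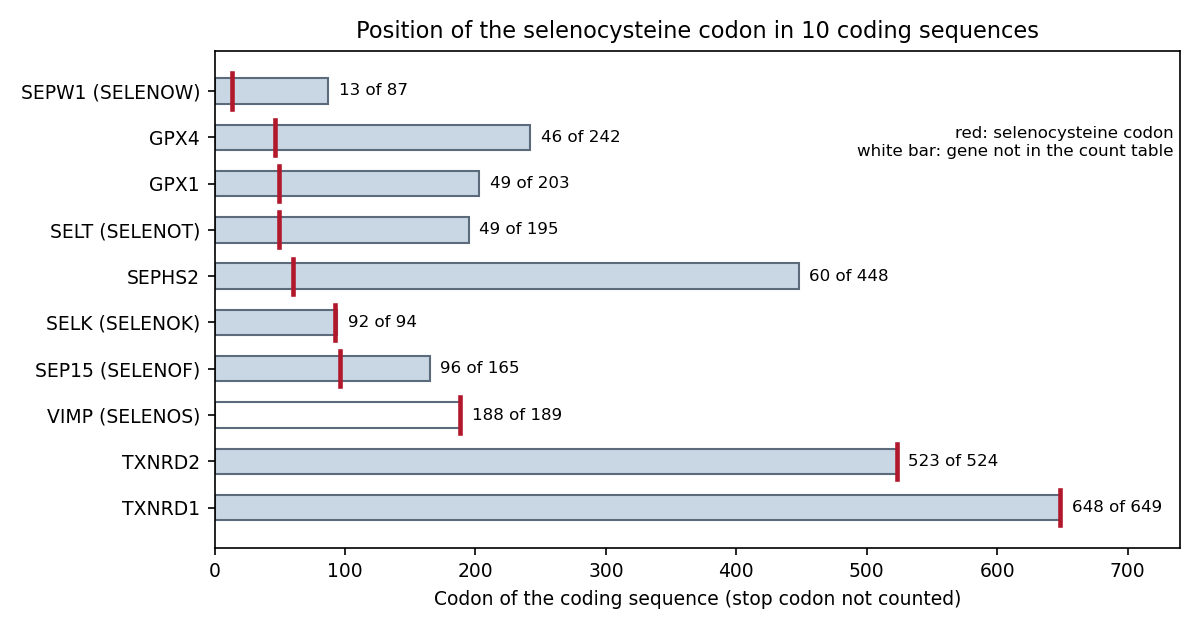
Bars give the length of the coding sequence of 10 selenoprotein genes in codons (horizontal axis), and the red line marks the selenocysteine codon, with its position printed beside the bar. In TXNRD1, TXNRD2, SELK and VIMP the red line sits at the end of the bar. The white bar is VIMP, which had no row.

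Guanine follows the TGA in 9 of the 10 genes and adenine in SEP15. Among 13 further selenoproteins with an in-frame TGA the next base was C in 5, G in 4, T in 3 and A in 1. Where a transcript held more than 1 in-frame TGA, as in GPX4, SEPN1 (SELENON) and SEPP1 (SELENOP), the first was taken. TXNRD3 entered this tally by its sequence only. Over 8402 transcripts of the table that end at an ordinary TGA, it was G in 37.9%, A in 25.8%, C in 20.7% and T in 15.6%. These shares describe the sequences and were not tested.

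GPX4 and TXNRD2 were the selenoprotein genes of the list that passed the threshold, both with more footprints in sgN6AMT1, and none of the 8 had fewer past the threshold, also at an unadjusted p under 0.05 (0 of 8) and in DESeq2 (0 of 8). The rise was 1.38-fold for GPX4 and 1.26-fold for TXNRD2. With 2 of 8 tested genes called, or 25.0%, the share was near that of all genes, since edgeR called 26.9% of the 9202 genes tested (12.9% higher and 13.9% lower in sgN6AMT1). That balance of 1191 higher to 1282 lower genes turned with the scaling, to 1560 and 976 with total counts and no factors, and stood at 1103 and 1585 with trends on CDS length and GC content removed. In DESeq2, which called 12.4% of 10716 genes, GPX4 was the 1 gene called among the 8. The median log2 fold change of the 8 genes was 0.138, beside 0.0063 over all genes tested.

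Glutathione peroxidases reduce peroxides at the expense of glutathione. GPX4, which reduces lipid hydroperoxides in membranes and protects cells from ferroptosis, had 110, 138 and 124 footprints in sgCtrl and 157, 191 and 131 in sgN6AMT1. Scaled to library size these were 55.3, 47.6 and 61.1 CPM, counts scaled to library size, in sgCtrl against 68.8, 82.5 and 71.1 CPM in sgN6AMT1. Each sgN6AMT1 library was above each sgCtrl library. Its log2 fold change was 0.46 ± 0.115 (SE, 95% interval 0.23 to 0.69, adjusted p = 0.00106, edgeR quasi-likelihood test). GPX1, the abundant cytosolic peroxidase of many tissues, was at 0 in 6 of 6 libraries. If reads of GPX1 could be counted, a 0 in a library allows up to 1.01 to 1.65 CPM (3 counts, here over total counts without scaling factors). Over the 13431376 counts of all libraries it then allows up to 0.2234 CPM. GENCODE places another gene on the same strand over the GPX1 CDS, and names 2 GPX1 pseudogenes. Their part in this 0 was not tested. In all, 5708 genes of the table were at 0 throughout.

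Thioredoxin reductases return oxidized thioredoxin to its active form with electrons from NADPH, and their selenocysteine is part of the active site. TXNRD2, the mitochondrial enzyme, had 199, 294 and 207 footprints in sgCtrl and 260, 282 and 272 in sgN6AMT1. This corresponded to 100, 101 and 102 CPM in sgCtrl and to 114, 122 and 148 CPM in sgN6AMT1. The sgCtrl libraries lay close together, the third sgN6AMT1 library was the highest, and the groups did not overlap. The log2 fold change was 0.33 ± 0.0901 (SE, 95% interval 0.15 to 0.51, adjusted p = 0.00311, edgeR quasi-likelihood test). Without sgN6AMT1 replicate 3 it was 0.22 with an adjusted p of 0.0943, and DESeq2 gave 0.32 with an adjusted p of 0.0595, so the call depended on that library and on the tool.

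TXNRD1, the cytosolic enzyme, had 388, 617 and 446 footprints in sgCtrl and 472, 422 and 351 in sgN6AMT1. Its levels were 195, 213 and 220 CPM against 207, 182 and 191 CPM, with overlap between the groups. The log2 fold change of -0.12 ± 0.0700 (SE, 95% interval -0.25 to 0.02) did not pass the threshold (adjusted p = 0.229, edgeR). Within a library, the ratio of TXNRD1 to TXNRD2 footprints does not depend on scaling. It was 1.95, 2.10 and 2.15 in sgCtrl and 1.81, 1.50 and 1.29 in sgN6AMT1, lower in each sgN6AMT1 library than in any sgCtrl library. On the log2 scale the ratio was 1.04 ± 0.075 in sgCtrl and 0.60 ± 0.247 in sgN6AMT1 (SD, n = 3 each), a difference of -0.44 (2-sided exact permutation p = 0.1, the smallest that 3 against 3 libraries allow). The same ratio for GPX1 and GPX4 could not be formed, so 1 ratio was tested.

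**Figure D2:**
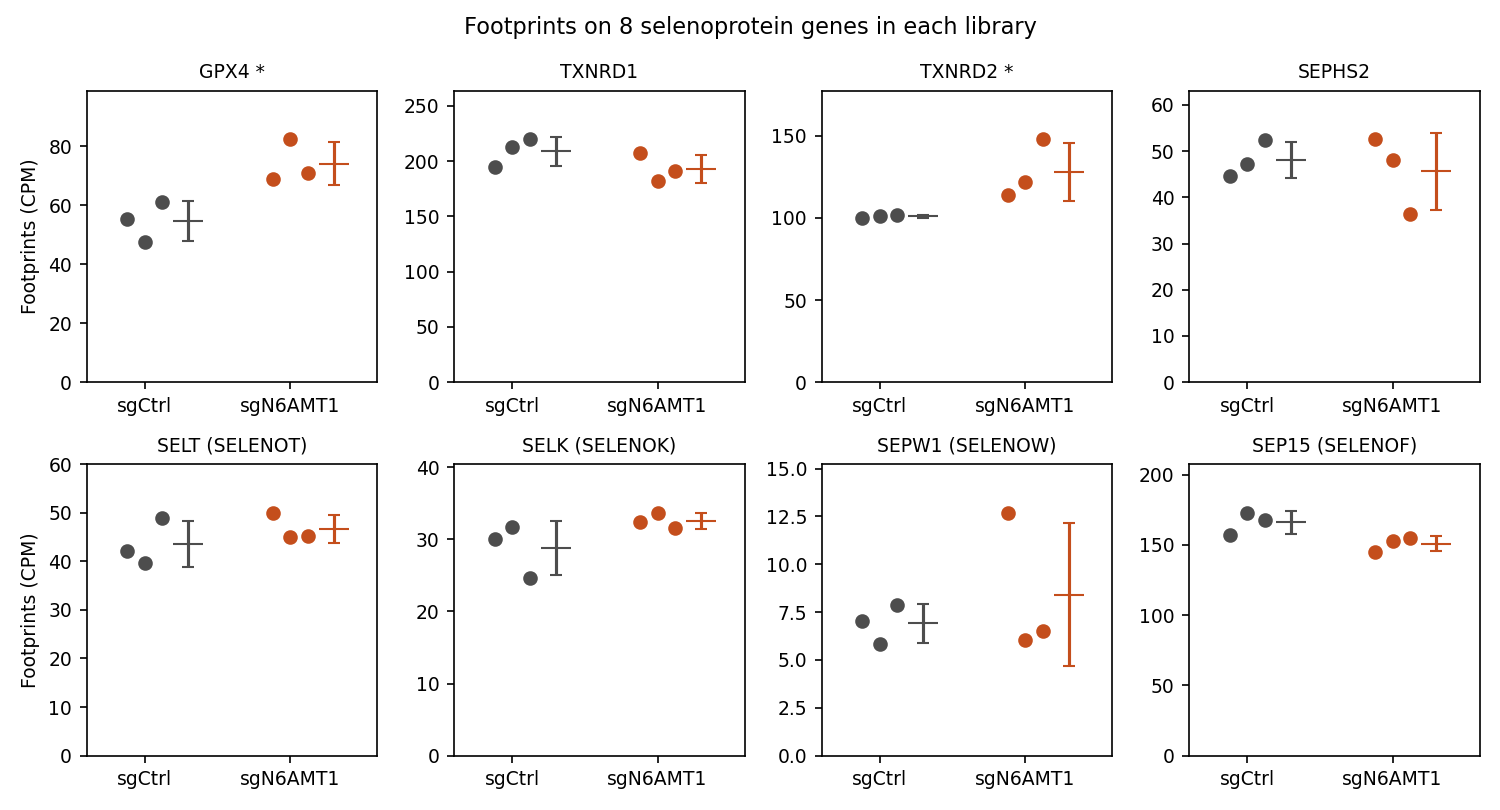
Each panel gives a gene, with a point for each library in CPM on an axis that starts at 0, and the mean ± SD of 3 libraries beside the points. Asterisks mark GPX4 and TXNRD2, which passed the threshold. The groups are separate for GPX4, TXNRD2 and SEP15 and overlap in the other panels.

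SEPHS2 makes selenophosphate, the selenium donor for selenocysteine, and is itself a selenoprotein, encoded in 1 exon. Levels of SEPHS2 were 44.7, 47.2 and 52.3 CPM in sgCtrl and 52.6, 48.0 and 36.4 CPM in sgN6AMT1. The third sgN6AMT1 library was the lowest and the first the highest of all 6, and the log2 fold change was -0.06 ± 0.125 (SE, adjusted p = 0.791, edgeR). SEPW1, a small cytosolic redox protein, had the lowest counts, with 14, 17 and 16 in sgCtrl and 29, 14 and 12 in sgN6AMT1. For SEPW1 the estimate of 0.33 ± 0.302 (SE, adjusted p = 0.467, edgeR) rested on the first sgN6AMT1 library, without which it was -0.12. Its interval of -0.28 to 0.93 holds both 0 and the estimate for GPX4.

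The remaining measured genes encode proteins of the endoplasmic reticulum (ER). SEP15, which binds the folding sensor UGGT, had 157, 173 and 168 CPM in sgCtrl and 145, 153 and 155 CPM in sgN6AMT1. These groups did not overlap, but the log2 fold change of -0.14 ± 0.0761 (SE, 95% interval -0.29 to 0.01) did not pass the threshold (adjusted p = 0.168, edgeR). After removal of trends on CDS length and GC content, SEP15 was called lower, at -0.22 with an adjusted p of 0.0108. SELT, a thioredoxin-fold protein of the ER membrane, had 84, 115 and 99 footprints in sgCtrl against 114, 104 and 83, or 43.5 ± 4.73 against 46.7 ± 2.87 CPM (SD, n = 3 each). SELK, a membrane protein that works with the palmitoyl transferase ZDHHC6, had 30.1, 31.7 and 24.6 CPM against 32.4, 33.7 and 31.5 CPM. For SELT and SELK the groups overlapped, and the log2 fold changes were 0.11 ± 0.125 (SE, adjusted p = 0.546) and 0.16 ± 0.149 (SE, adjusted p = 0.46, edgeR). In all, 3 of the 8 genes had no overlap between the groups, or GPX4, TXNRD2 and SEP15, where 37.5% of all genes tested had none.

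Levels of different genes were compared per length, as CPM per kilobase of CDS. For GPX4 this was the length of the listed transcript, which is not the canonical one, and for SELT and SEPW1 that of the canonical transcript. Ranks and overlaps rest on these lengths. In sgCtrl SEP15 was first, with 335 ± 17.1 (SD, n = 3). TXNRD1 with 107 ± 6.61 and SELK with 102 ± 13.2 overlapped with each other, as did GPX4 with 75.3 ± 9.36 and SELT with 74.4 ± 8.08. TXNRD2 with 64.3 ± 0.678, SEPHS2 with 35.8 ± 2.86 and SEPW1 with 26.5 ± 3.9 followed, each apart from the gene before it. In sgN6AMT1 the density of GPX4 was 102 ± 10.1, between SELK with 115 ± 3.94 and TXNRD1 with 99.3 ± 6.42, and overlapped with both. In that group only SEP15 (305 ± 11.4) over SELK, and SELT (79.7 ± 4.91) over SEPHS2 (34.0 ± 6.22), were neighbours without overlap. TXNRD2 was at 81.3 ± 11.2 and SEPW1 at 32.3 ± 14.3. Whether the CDS used for counting ran past the UGA is not stated. If only the CDS up to the TGA is taken as the length, SEP15 stays first in sgCtrl and each of the other 7 genes changes rank, with GPX4 second and TXNRD2 last. That length was chosen after the data had been seen.

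The position of the UGA was set beside the changes as a description, without a test. Of the 5 tested genes whose TGA ends more than 50 bases before the last exon junction, 2 were higher (12.9% of all genes were), and their median log2 fold change was 0.33 (range -0.14 to 0.46). These were GPX4 (364 bases), SELT (470 bases), SEPW1 (243 bases), SEP15 (78 bases) and TXNRD2 (71 bases). TXNRD1, SELK and SEPHS2, which do not meet this condition, had a median of -0.06 (range -0.12 to 0.16). The median of 0.33 is the value of SEPW1, which was -0.12 without sgN6AMT1 replicate 1. In TXNRD2 the ordinary stop codon follows after 1 more codon, and it too lies more than 50 bases before the last junction. By place in the CDS the called genes were divided: of 3 genes with the codon beyond 90% of the CDS, TXNRD2 was higher, and of 5 with an earlier codon, GPX4.

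Among 15 other selenoprotein genes, 14 had a row and 6 could be tested, and 2 of them were higher in sgN6AMT1 and 0 lower (0 lower also at an unadjusted p under 0.05 and in DESeq2). These 2 of 6 are 33.3%, where 12.9% of all genes were higher and 26.9% called, and 6 genes are few for a share. MSRB1, a methionine sulfoxide reductase, changed most, from 57, 62 and 40 footprints to 124, 109 and 88. Its level was 23.2 ± 4.74 CPM in sgCtrl and 49.7 ± 4.01 CPM in sgN6AMT1 (SD, n = 3 each). The log2 fold change was 1.11 ± 0.143 (SE, adjusted p = 5.01e-10, edgeR). The transcript listed for MSRB1 has no in-frame TGA in GENCODE 44. Whether the counts are for the CDS of that transcript alone, or for the whole gene, is not stated. C11orf31 (SELENOH), a nuclear redox protein, rose from 101 ± 16.1 to 123 ± 7.94 CPM, a log2 fold change of 0.31 ± 0.0933 (SE, adjusted p = 0.00669, edgeR). That call was lost in DESeq2, at 0.30 (adjusted p = 0.125), and without sgCtrl replicate 2, where the value was 0.16 (adjusted p = 0.264, edgeR). The transcript listed for C11orf31 is not the canonical one, and GENCODE places another gene on the same strand over its CDS. The part of that gene in the rise was not tested.

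EPT1 (SELENOI), an ethanolamine phosphotransferase, had a log2 fold change of 0.03, SEPN1 (SELENON) of the ER 0.20, the mitochondrial SELO (SELENOO) -0.13 and the selenium carrier SEPP1 (SELENOP) -0.18. None of these 4 passed the threshold (adjusted p 0.646 to 0.852, edgeR). SELM (SELENOM) was too low to test, with 6, 6 and 7 footprints in sgCtrl and 10, 12 and 9 in sgN6AMT1. GPX2, GPX3, GPX6, DIO1, DIO2, DIO3 and SELV, 7 genes in all, were listed at 0 in each library. Footprints on TXNRD3 were not analysed here.

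**Figure D3:**
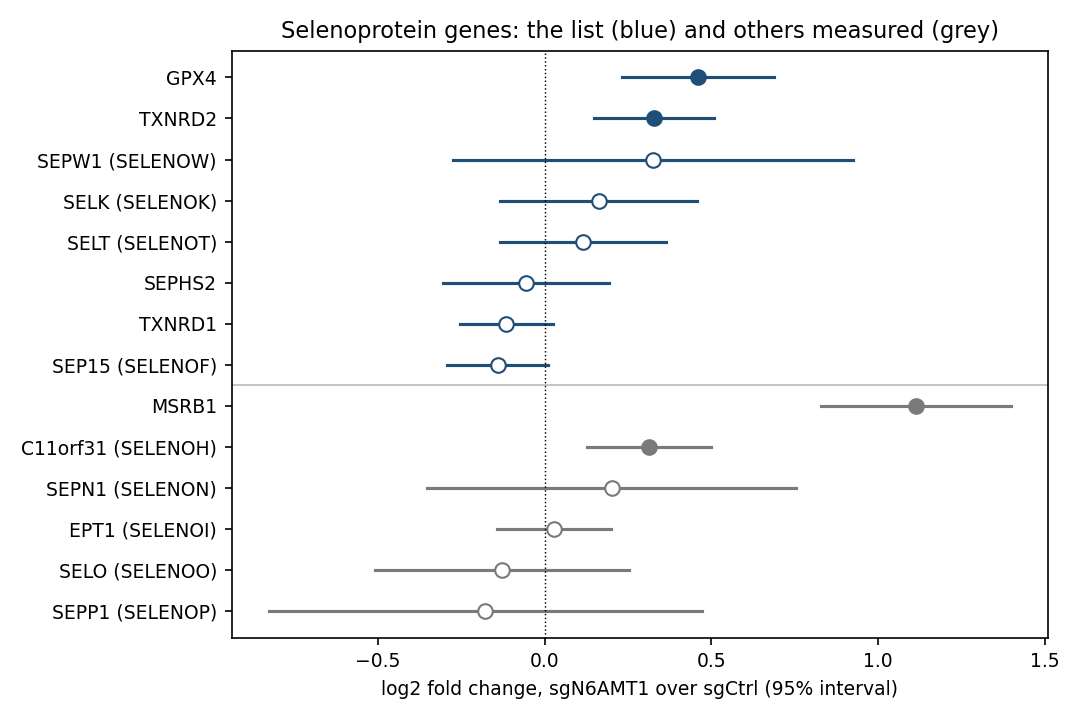
Points give the log2 fold change, sgN6AMT1 over sgCtrl, of 8 selenoprotein genes of the list (blue) and 6 others (grey), and lines the 95% interval. Filled points passed the threshold and lie to the right of 0: GPX4, TXNRD2, MSRB1 and C11orf31.

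The list of selenocysteine synthesis and insertion also holds general RNA-binding proteins and an export receptor. On this list NCL, EIF4A3 and XPO1, all of that general kind, were lower in sgN6AMT1. Of its 15 genes 14 were tested, with 0 higher (0 also at an unadjusted p under 0.05 and in DESeq2) and 3 lower (5 at an unadjusted p under 0.05). The called share of 21.4% stood beside 26.9% of all genes called and 13.9% called lower, and the median log2 fold change was -0.06. The called genes were NCL (-0.31, adjusted p = 6.01e-08), EIF4A3 (-0.26, adjusted p = 5.05e-04) and XPO1 (-0.13, adjusted p = 0.042, edgeR). NCL (nucleolin) and EIF4A3 are RNA-binding proteins with many other targets and XPO1 is a general nuclear export receptor. XPO1 passed the threshold in 6 of 15 alternative settings.

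The other 11 tested genes of this list did not pass the threshold. SECISBP2, which binds the SECIS element, was at 9.4 ± 3.02 CPM in sgCtrl and 10.8 ± 2.46 CPM in sgN6AMT1, with a log2 fold change of 0.17 (adjusted p = 0.685, edgeR). Its paralog SECISBP2L was at 0.18 and EEFSEC at 0.05. SEPSECS, which converts the serine on the tRNA to selenocysteine, was at -0.12, SARS, the general seryl-tRNA synthetase, which also charges that tRNA with serine, at 0.07, and the tRNA-associated TRNAU1AP at -0.05. SCLY, which recovers selenium from selenocysteine, was at -0.07. The other RNA-binding proteins of the list, RPL30, CELF1 and ELAVL1, were at -0.13, -0.05 and -0.17, and RPL30 and ELAVL1 had adjusted p-values of 0.0537 and 0.0597 (edgeR). RPL30 passed the threshold, as lower, in 5 of 15 alternative settings, with -0.20 (adjusted p = 3.64e-05) when trends on CDS length and GC content were removed, and ELAVL1 in 2 of 15. PSTK was not analysed here.

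Release factors act at the same codon. ETF1, the gene of eRF1, had 324 ± 9.39 CPM in sgCtrl and 310 ± 20.3 CPM in sgN6AMT1 (SD, n = 3 each). Its log2 fold change was -0.06 (adjusted p = 0.495, edgeR). GSPT1 (eRF3a), its GTPase partner, was lower, at -0.16 (adjusted p = 0.0276, edgeR), past the threshold in 9 of 15 alternative settings, and GSPT2 (eRF3b) was at 0.03. ABCE1, which splits ribosomes after termination, was lower at -0.23 (adjusted p = 0.00112, edgeR). Of these 4 genes 2 were called, both lower, where 13.9% of all genes were lower, and 4 genes are too few to read a share.

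The list called cysteine homologs holds relatives of selenoproteins that lack selenocysteine. Whether each has a cysteine at that place was not checked. Of 7 listed, 3 were tested. MSRB2, a mitochondrial counterpart of MSRB1, rose from 9.17 ± 1.02 to 14.2 ± 3.68 CPM (log2 fold change 0.66, adjusted p = 0.0349, edgeR), past the threshold in 9 of 14 alternative settings. SEPHS1, the paralog of SEPHS2, was at 0.03 (adjusted p = 0.871), and glutathione reductase (GSR), which has the fold of TXNRD1 without selenocysteine, at 0.09 (adjusted p = 0.433, edgeR).

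Thioredoxin and glutathione carry electrons to or from the selenoenzymes. Of 21 thioredoxin and glutathione partners, each tested, 4 were higher and 1 lower in sgN6AMT1, and the median log2 fold change was 0.03. PRDX5, a peroxiredoxin reduced by thioredoxin, rose from 74.5 ± 5.16 to 140 ± 2.17 CPM (0.91, adjusted p = 2.6e-14, edgeR). SLC3A2, the heavy chain of the cystine transporter and of other amino acid transporters, was at 0.52 (adjusted p = 1.46e-13) and PRDX1 at 0.19 (adjusted p = 2.62e-04, edgeR). SLC7A11, the light chain of the cystine transporter, was at -0.27 and not called (adjusted p = 0.216, edgeR). GLRX, a glutaredoxin, was at 0.77 (adjusted p = 0.0453, edgeR), past the threshold in 5 of 14 alternative settings. RRM2, the ribonucleotide reductase subunit, was lower at -0.24 (adjusted p = 7.19e-04, edgeR).

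The ER partners of SELK, VIMP and SEP15 numbered 12 tested genes, and 3 of these were higher. SYVN1, the ubiquitin ligase of ER-associated degradation, was at 0.40 (adjusted p = 3.09e-04), and the membrane proteins DERL2 and DERL1 of the same pathway at 0.67 (adjusted p = 0.0018) and 0.29 (adjusted p = 0.0179, edgeR). DERL2 passed the threshold in 13 of 15 alternative settings and DERL1 in 10 of 15. The shares called, 23.8% of the thioredoxin and glutathione partners and 25.0% of the ER partners, lay near the 26.9% of all genes.

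**Figure D4:**
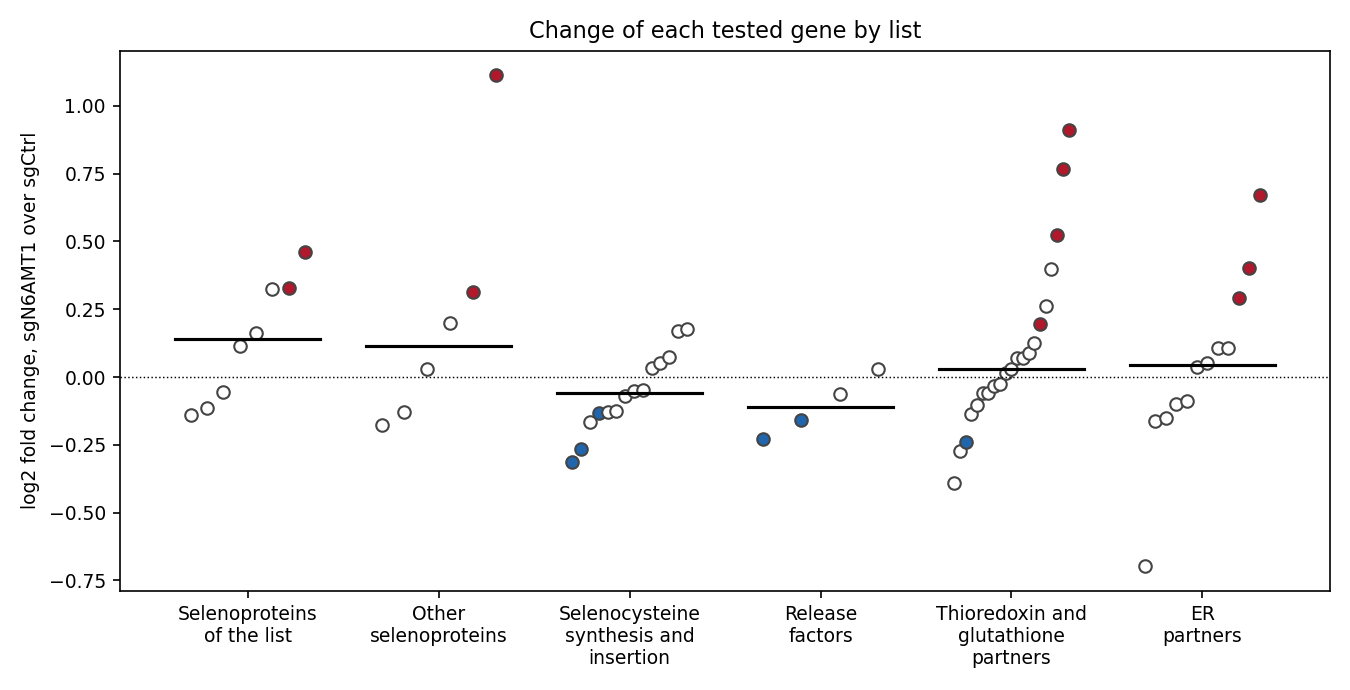
Points give the log2 fold change of each tested gene, sgN6AMT1 over sgCtrl, in 6 lists, red where called higher, blue where called lower and white otherwise, and lines give the medians. The selenoproteins of the list have a median of 0.138, and the genes of selenocysteine synthesis and insertion -0.06.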

How the data were processed

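The authors deposited unnormalized footprint counts, whole numbers for each transcript, of 3 sgCtrl and 3 sgN6AMT1 libraries. Per the methods, cutadapt trimmed adapters, HISAT2 mapped reads (GRCh38, Ensembl 84), reads on rRNA and tRNA were removed, bowtie2 mapped the rest to canonical transcripts, and riboWaltz placed P-sites on 1 transcript per gene. Reads were also counted by overlap with gene models, and which count the table holds is not stated. No molecular identifiers are described, so the floors cover counting error only. The intervals rest on the fitted dispersion and therefore also include the spread between replicate libraries. Footprint counts depend on mRNA level and on translation, and RNA sequencing was not used here.

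Genes were filtered with filterByExpr (minimum count 10), scaled by TMM factors and tested in edgeR 4.0.16 (R 4.3.3) with the robust quasi-likelihood F test, 2-sided, with Benjamini-Hochberg adjustment over 9202 genes and a threshold of 0.05. The common biological coefficient of variation was 4.36%. CPM refer to TMM-adjusted library size, except the bounds for GPX1, which refer to total counts. Alternatives were factors by RLE, by the upper quartile or none (total counts), DESeq2 1.42.0, no filter, a minimum mean of 50 counts, voom (limma 3.58.1), a replicate block, removal of CDS length and GC trends, and omission of each library. The steps were tested on simulated data. GENCODE 44 matched 17687 transcripts (91.5%), 17537 with a CDS. The genes and lists were chosen with earlier results of these data known. Named were the 10 genes, N6AMT1, ETF1, each tested gene of the lists of other selenoproteins, selenocysteine synthesis and insertion, cysteine homologs and release factors, and of the partner lists the called genes, at most 4 per direction. ZDHHC6 was named only as background, and SLC7A11 as the partner chain of SLC3A2. 1 further gene is not reported here.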

Additional observations from a re-analysis of the deposited data

How the results depend on the processing

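GPX4 was called higher in each of 15 alternative settings (log2 fold change 0.35 to 0.54, adjusted p 2.50e-04 to 0.0416). TXNRD2 was called in 13 of 15. It was at 0.3229 in DESeq2, below the threshold, and between 0.2176 and 0.4038 when a library was left out, with the lowest value without sgN6AMT1 replicate 3. SEP15 was at -0.2172, and called, with CDS length and GC trends removed. In that setting 1 gene of the 8 was lower, 0 cysteine homologs were higher, 3 thioredoxin and glutathione partners and 1 ER partner were lower. DESeq2 called 1329 genes, 588 higher and 741 lower (12.4% of those tested), against 2473, 1191 and 1282 in edgeR, and within the lists 1 selenoprotein of the 8, 1 other selenoprotein, 0 cysteine homologs and 1 ER partner higher, and 1 release factor lower. A mean of at least 50 counts removed MSRB2, the cysteine homolog called in edgeR, before testing, so 0 of that list were higher there. That filter left 1 release factor lower, and total counts without factors also 1. Leaving out a library gave 1 to 2 of the 8 selenoproteins and 1 to 2 other selenoproteins higher, 2 to 5 genes of selenocysteine synthesis and insertion lower (5 without sgCtrl replicate 1), 0 to 1 cysteine homologs higher, 1 to 2 thioredoxin and glutathione partners lower, 1 to 3 ER partners higher and 0 to 1 lower, and 1 to 2 release factors lower. The order of density kept 4 of 8 ranks when the first 15 and last 5 codons were left out, and 1 of 8 with the CDS up to the TGA.

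Deviations of same-numbered libraries from their group means had small correlations (-0.0612, 0.0198 and 0.0162). With 3 libraries per group these cannot exclude a shared batch, and whether there was one is not stated. With the replicate block 2390 genes were called, GPX4 was at 0.46 and TXNRD2 at 0.33, both called, and 2 thioredoxin and glutathione partners were lower; XPO1 lost its call (adjusted p = 0.0688). The paired ratio of TXNRD1 to TXNRD2 gave a sign-flip p of 0.25 (exact, the smallest that 3 pairs allow).

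Low counts limit SEPW1, SELM, SEPN1, SEPP1 and GLRX, which had 29 or fewer per library. GPX1 has a bound only, which holds if its reads could be counted. SECISBP2 (14 to 37 counts) and MSRB2 (17 to 42) were little deeper, and MSRB2 fell to 0.44, not called, without sgN6AMT1 replicate 2.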
